A study of Mus musculus with 6 samples.

Results

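The transcripts of 10 RGS genes (regulators of G-protein signalling) were examined in mouse liver after treatment with the code-named compound iD1. The members are Rgs1, Rgs2, Rgs3, Rgs4, Rgs5, Rgs10, Rgs12, Rgs14, Rgs16 and Rgs19, 10 of the 34866 genes in the count table, and each was found by its Ensembl identifier and symbol. They were selected on the iD1 against vehicle differences of these same libraries. Livers came from 8-week-old male C57BL/6 mice given vehicle or iD1 by intraperitoneal injection, with 3 mRNA libraries in each group and no genetic change named in the labels. All mice ate freely under a light-dark cycle, and the time of day at collection is not stated. The vehicle samples carry the treatment label untreated although the series text names a vehicle, and the labels neither give the dose and time of iD1 nor say whether each library stands for an animal of its own. A p-value here therefore speaks only of the spread between libraries. One vehicle column has a number found in no sample title and is called the unnumbered vehicle replicate.

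RGS proteins share a domain that speeds the hydrolysis of GTP by the alpha subunits of heterotrimeric G proteins, and so they end the signal from G-protein-coupled receptors. Members of the R4 subfamily, here Rgs1, Rgs2, Rgs3, Rgs4, Rgs5 and Rgs16, are mostly small proteins with little beside this domain. Rgs10, Rgs12 and Rgs14 belong to the R12 subfamily, and Rgs19 to the RZ subfamily. In liver, Rgs16 is known as a transcript of periportal hepatocytes that follows feeding and the time of day, while Rgs5 is a marker of pericytes in many tissues. Liver RNA holds all of these cell types together, and fewer cells of a type cannot be told apart from less RNA per cell.

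Levels are given as CPM (counts-per-million of the library total after TMM scaling). The library totals ran from 23515571 to 37613549 estimated counts, so that 3 counts, the most that a count of 0 allows, corresponded to 0.0723 to 0.139 CPM for counting error alone. Hepatocyte transcripts dominated each library, the 6 hepatocyte markers together holding 70961 to 93768 CPM in vehicle and 89729 to 97898 CPM in iD1 libraries. Of the 6, 2 were called higher, Apoa1 and Hnf4a, beside 16.7% of all tested genes called in either direction. The Apoa1 call was lost without any 1 library, and that of Hnf4a without any 1 library other than iD1 replicate 1. Cholangiocyte markers summed to 22.9 to 36.5 CPM in vehicle and 28.0 to 45.5 CPM in iD1 libraries. Of these 5, 1 was higher, Sox9, and 1 lower, Krt19. The Sox9 call was lost without any 1 library other than iD1 replicate 3. The groups separated along the first principal component, with iD1 replicate 1 at 19.4 and the other iD1 libraries at 45.2 and 49.7, against -45.8 to -32.5 in vehicle. Of the 10 RGS genes, 9 passed the filter on low counts, and each of the 9 reached its minimum of 0.336 CPM in all 3 vehicle and all 3 iD1 libraries. Rgs14 did not reach it in any library. Each member's estimates and those of all 13718 tested genes come from one edgeR quasi-likelihood fit, and "called" means a Benjamini-Hochberg adjusted p under 0.05 over all of these genes. Since this comparison selected the members, their fold changes and adjusted p-values describe them and support nothing further.

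Of all tested genes, 16.7% were called in either direction. Of the 10 members, selected on these differences, 5 lie on mouse chromosome 1, and all 3 called members are among these 5. All 5 also belong to the R4 subfamily, and a link to the chromosome was not tested. The promoters of 4 of these genes are printed first, because they belong to genes that differ in response: Rgs16 and Rgs4, which were called higher, Rgs5, the neighbour of Rgs4 with similar levels in both groups, and Rgs2, the neighbour of Rgs1. Each line gives the 250 bases before the RefSeq start site, read 5′ to 3′ along the gene (GRCm38.p6). Capitals mark 3 motifs on either strand: the CCAAT box, the TATA box (letters TATAAA) and the core of the cAMP response element (letters TGACG).
Rgs16: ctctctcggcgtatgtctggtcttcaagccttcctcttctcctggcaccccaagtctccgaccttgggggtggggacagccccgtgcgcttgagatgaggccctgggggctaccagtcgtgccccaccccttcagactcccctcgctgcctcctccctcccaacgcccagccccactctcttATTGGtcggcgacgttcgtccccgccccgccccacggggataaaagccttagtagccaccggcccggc
Rgs4: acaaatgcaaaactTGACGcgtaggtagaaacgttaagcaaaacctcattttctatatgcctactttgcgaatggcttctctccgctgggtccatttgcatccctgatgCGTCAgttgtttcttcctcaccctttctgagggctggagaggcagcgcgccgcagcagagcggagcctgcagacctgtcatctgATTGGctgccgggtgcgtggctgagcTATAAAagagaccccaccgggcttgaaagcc
Rgs5: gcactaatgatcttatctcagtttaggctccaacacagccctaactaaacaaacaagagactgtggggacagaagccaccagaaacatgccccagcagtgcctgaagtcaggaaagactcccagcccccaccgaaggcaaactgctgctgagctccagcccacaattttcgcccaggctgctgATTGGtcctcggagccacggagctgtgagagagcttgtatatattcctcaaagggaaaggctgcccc
Rgs2: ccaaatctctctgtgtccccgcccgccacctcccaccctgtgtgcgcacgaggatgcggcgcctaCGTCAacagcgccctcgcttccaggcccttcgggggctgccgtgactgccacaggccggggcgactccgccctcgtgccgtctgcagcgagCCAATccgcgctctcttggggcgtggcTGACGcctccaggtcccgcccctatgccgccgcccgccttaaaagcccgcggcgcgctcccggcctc
These windows are chr1:153740103-153740352 on the plus strand for Rgs16, chr1:169747643-169747892 on the minus strand for Rgs4, chr1:169655251-169655500 on the plus strand for Rgs5 and chr1:144004150-144004399 on the minus strand for Rgs2.

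CCAAT or its complement ATTGG, the core of the CCAAT box, was found once in each of the 4 windows. It began 68 bases before the start of Rgs16, 57 before that of Rgs4, 67 before that of Rgs5 and 94 before that of Rgs2. The promoters of 8 member genes, 12 in all, were available, and those of Rgs1, a called member, and Rgs14 were not. The 4 printed windows were the only ones searched among members with this match, which 33.8% of all 32851 promoter windows of the same length hold. The match was thus present both in genes called higher and in Rgs5. TATAAA was found 31 bases before the start of Rgs4 and in both windows of Rgs3, against 12.4% of all windows. TGACG, from the cAMP response element, occurred in a pair of places in Rgs4 and in Rgs2 and in 1 window of Rgs12, against 17.8% of all windows, and it was not found in the windows of Rgs16 and Rgs5. The full element TGACGTCA (1.55% of all windows) and the E-box CACGTG (6.02%) matched no member window, and the AP-1 motif TGANTCA (6.75%) matched 1 window of Rgs12. The motifs were searched on both strands and TGACG lies within TGACGTCA. They were chosen after the data were seen, and a match describes letters, not a bound site.

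Of the 9 tested members, Rgs16, Rgs1 and Rgs4 were called higher in iD1 livers by edgeR, DESeq2 and limma-voom. DESeq2 also called Rgs2 higher (adjusted p = 0.0460), and 0 members were called lower by edgeR, DESeq2 or limma-voom. At an unadjusted p under 0.05 in edgeR, 4 members were higher and 1, Rgs12, lower. At that unadjusted p, 2088 of all 13718 tested genes were higher and 2205 lower. For comparison, 8.42% of all tested genes were called higher and 8.30% lower, 16.7% in either direction. The median log2 fold change was 0.17 over the 9 members and 0.00 over all tested genes. In 4 members every iD1 library lay above every vehicle library (18.5% of all tested genes), and in 0 members every iD1 library lay below (18.7%).

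**Figure D1:**
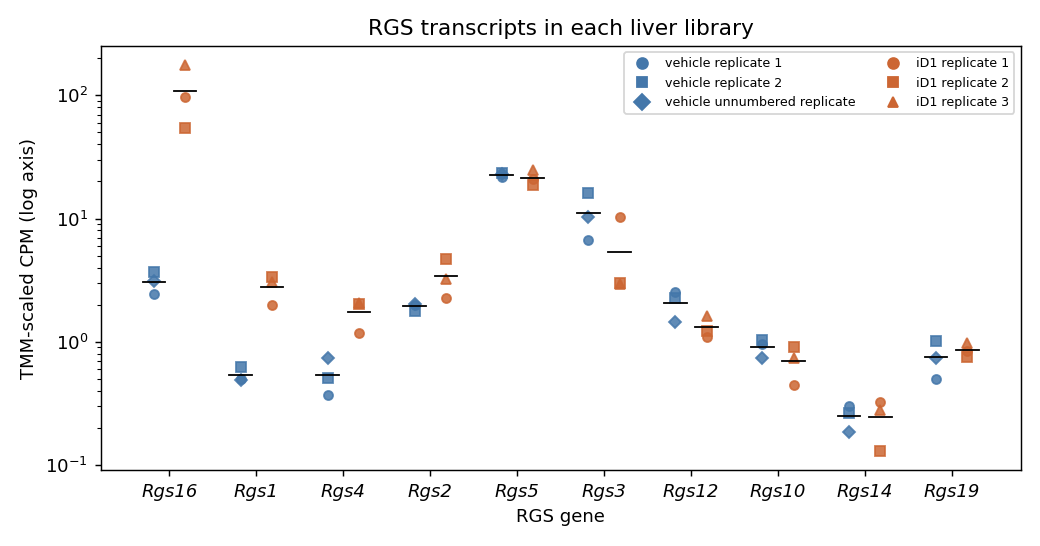
TMM-scaled CPM on a log axis for the 10 RGS genes in each of the 6 libraries, with vehicle in blue, iD1 in orange, marker shape for the replicate and a bar at each group mean. The groups stand apart for Rgs16, Rgs1, Rgs4 and Rgs2 and overlap for the other members.

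Rgs16, which acts on the alpha subunits of the Gi and Gq classes, was the member with the largest difference. It measured 2.43, 3.69 and 3.09 CPM in the vehicle libraries and 96.5, 54.1 and 176 CPM in iD1 replicates 1, 2 and 3. All iD1 values lay far above the highest vehicle value, and iD1 replicate 3 was the highest of them. The group means were 3.07 ± 0.630 CPM without and 109 ± 61.9 CPM with iD1 (SD, n = 3 each), a 35.2-fold difference (log2 fold change 5.14, SE 0.53; edgeR adjusted p = 0.00339). These values rest on 73 to 153 counts in a vehicle library and 1672 to 3790 in an iD1 library. Rgs16 (ENSMUSG00000026475) is a protein-coding gene on the plus strand of chromosome 1 from 153740349 to 153745468. Its exons share 236 bases with Gm28513 on the other strand, which is not among the counted genes. The kit was stranded, but without a stated strand setting in the counting the reads of the pair cannot be told apart. Rgs8, the nearest RGS gene, had at most 4 counts in a library.

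Rgs1, best known in lymphocytes, where it restrains migration towards chemokines, was low in every vehicle library. Its values were 0.499, 0.627 and 0.490 CPM in the vehicle libraries and 1.97, 3.33 and 3.06 CPM in iD1 libraries. The lowest iD1 value, that of replicate 1, was still above all vehicle values. Means were 0.539 ± 0.0764 and 2.79 ± 0.719 CPM (SD, n = 3 each), a 5.12-fold difference (log2 fold change 2.36, SE 0.30; edgeR adjusted p = 0.00125), from 15 to 26 counts per vehicle library and 49 to 103 per iD1 library. Among the markers looked up for B cells, 0 of 2 tested genes were called, and their summed level over all 6 genes was 5.24 to 11.4 CPM in vehicle and 2.07 to 6.97 CPM in iD1 libraries. Among those for T and NK cells 0 of 3 tested genes were called, with 2.92 to 4.36 CPM in vehicle and 2.07 to 2.83 CPM in iD1 libraries. The neutrophil list, by contrast, had 3 of 5 tested genes called higher, with 1.47 to 2.0 CPM in vehicle and 4.35 to 12.9 CPM in iD1 libraries, these being Retnlg, S100a8 and S100a9. At an unadjusted p under 0.05, 4 of the 5 were higher and 0 lower, beside 2088 and 2205 of all 13718 tested genes. Of the neutrophil list's untested genes, Mmp8 averaged 0.0111 CPM without and 0.420 CPM with iD1. Ly6g had 2 counts in all libraries together, none of them in iD1 libraries. Platelet and megakaryocyte markers, with 0 of 3 tested genes called, summed to 2.33 to 3.06 CPM in vehicle and 2.70 to 5.01 CPM in iD1 libraries. The part of neutrophils in the Rgs1 difference was not tested.

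Rgs4, an inhibitor of Gi and Gq signalling studied mostly in brain and heart, measured 0.366, 0.506 and 0.735 CPM in the vehicle libraries and 1.17, 2.01 and 2.04 CPM in iD1 libraries. The groups did not overlap, and iD1 replicate 1 was again the lowest of its group. Means were 0.536 ± 0.186 and 1.74 ± 0.494 CPM (SD, n = 3 each), a 3.23-fold difference (log2 fold change 1.69, SE 0.37; edgeR adjusted p = 0.0137). The counts behind it were few, 11 to 24 per vehicle library and 29 to 62 per iD1 library, and without vehicle replicate 2 the adjusted p was 0.0512. Rgs4 and Rgs5 lie tail to tail on chromosome 1, 45.7 kb apart.

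Rgs5, the neighbour of Rgs4, stood at similar levels in both groups. It measured 21.9, 23.3 and 22.8 CPM in the vehicle libraries and 21.1, 18.7 and 24.7 CPM in iD1 libraries. The vehicle values lay within the range of the iD1 values. The log2 fold change was -0.08 (SE 0.13), with an adjusted p of 0.716 in edgeR's test from 523 to 965 counts per library, so that Rgs5 was the member measured with the smallest standard error. Of the other genes listed with Rgs5 as pericyte and smooth muscle markers, 0 were called. The whole list summed to 46.1 to 52.5 CPM in vehicle and 44.9 to 57.3 CPM in iD1 libraries. Rgs5 itself is part of this sum, at 18.7 to 24.7 CPM over all libraries. The stellate cell markers summed to 281 to 368 CPM in vehicle and 267 to 356 CPM in iD1 libraries. Of these, 0 of 13 were called higher and 3 lower, namely Lrat, Ngfr and Colec10. The Colec10 call was lost without any 1 vehicle library or iD1 replicate 1. At an unadjusted p under 0.05 in edgeR, 1 stellate cell marker was higher and 5 lower, and their list's median log2 fold change was -0.23. Of all 13718 tested genes, 2088 were higher and 2205 lower at that unadjusted p. The summed levels of both lists overlapped between the groups, and the part of these cells in the Rgs4 difference was not tested.

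Rgs2, which prefers alpha subunits of the Gq class and is induced in many cells by cAMP, differed less. It measured 2.0, 1.78 and 2.02 CPM in the vehicle libraries and 2.26, 4.72 and 3.25 CPM in iD1 libraries. All iD1 values were above all vehicle values, with iD1 replicate 1 close to them. The log2 fold change was 0.83 (SE 0.28), with an adjusted p of 0.0688 in edgeR's test. It was called by DESeq2 (adjusted p = 0.0460), in edgeR with no filter on low counts (adjusted p = 0.0402) and in edgeR without iD1 replicate 1 (adjusted p = 0.0167). Rgs2 and Rgs1 are neighbours among the tested genes of chromosome 1, 238 kb apart, and Uchl5 on the other side of Rgs2 had a log2 fold change of -0.11 (SE 0.12). Rgs13, which lies between Rgs1 and Rgs2, had 0 counts in all libraries.

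Rgs3, a further regulator of Gi and Gq subunits with long and short isoforms, had the largest SD relative to its mean among the members in both groups. It measured 6.75, 16.1 and 10.3 CPM in the vehicle libraries and 10.2, 3.01 and 2.93 CPM in iD1 libraries. iD1 replicates 2 and 3 lay below all vehicle values, and iD1 replicate 1 lay within their range. The means of 11.0 ± 4.72 and 5.38 ± 4.17 CPM (SD, n = 3 each) gave a log2 fold change of -1.05 (SE 0.61; edgeR adjusted p = 0.309), which is not called. Without iD1 replicate 1 the log2 fold change was -1.90 (SE 0.38), with an adjusted p of 0.0187. The deposited values are sums per gene and do not separate its isoforms.

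Among the R12 members, Rgs12, a large protein with PDZ and Ras-binding domains, measured 2.53, 2.27 and 1.44 CPM in the vehicle libraries and 1.09, 1.23 and 1.63 CPM in iD1 libraries. The groups overlapped through the unnumbered vehicle replicate and iD1 replicate 3. Its log2 fold change was -0.67 (SE 0.29), with an adjusted p of 0.152 in edgeR's test. Exons of Rgs12 share 467 bases with Gm43791 on the other strand, which is also not among the counted genes. The reads of Rgs12 thus have the same uncertainty as those of Rgs16. Rgs10, known from macrophages and microglia, measured 0.965, 1.04 and 0.735 CPM in the vehicle libraries and 0.443, 0.906 and 0.743 CPM in iD1 libraries. Its groups overlapped, and the log2 fold change was -0.38 (SE 0.36), with an adjusted p of 0.509 in edgeR's test. Rgs14, a scaffold that also binds Ras proteins, had 6 to 11 counts per vehicle library and 4 to 8 per iD1 library. Rgs14 did not pass the filter on low counts. In the edgeR fit with no filter its log2 fold change was -0.08 (SE 0.64; adjusted p = 0.955), so that moderate differences were not detectable at this depth.

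Rgs19, the RZ member, known for binding the Gi class, measured 0.499, 1.01 and 0.735 CPM in the vehicle libraries and 0.846, 0.744 and 0.975 CPM in iD1 libraries. The iD1 values lay within the range of the vehicle values. The log2 fold change was 0.17 (SE 0.35), with an adjusted p of 0.787 in edgeR's test, and its sign changed under other settings. Outside the R4 subfamily 0 of 3 tested members were called, against 3 of 6 within it and 16.7% of all tested genes. The members were selected on this comparison, and the contrast between subfamilies was not tested.

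**Figure D2:**
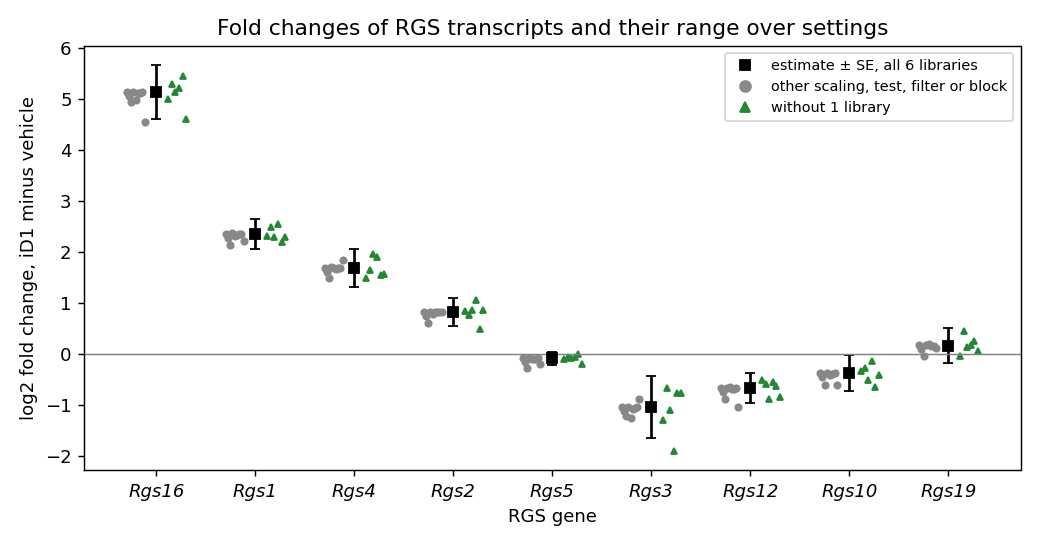
Log2 fold change of iD1 minus vehicle for the 9 tested RGS genes, with the estimate from all 6 libraries and its standard error in black, other scalings, tests, filters and the replicate block in grey, and fits without 1 library in green. Rgs16, Rgs1 and Rgs4 stayed above 0 in each fit shown, while Rgs3 ranged from -1.90 to -0.67.

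Levels were compared between genes per kilobase of merged exons in GENCODE M21. In vehicle livers Rgs5 was the most abundant member at 4.99 ± 0.150 CPM per kb, followed by Rgs16 at 1.31 ± 0.269 and Rgs3 at 1.02 ± 0.437 CPM per kb (SD, n = 3). Rgs16 and Rgs3 did not differ beyond their spread. Rgs2 at 0.533 ± 0.0361 and Rgs10 at 0.533 ± 0.0919 CPM per kb came next and could not be ordered. Rgs19, Rgs12 and Rgs4 lay at 0.336, 0.245 and 0.173 CPM per kb, and the ranges of mean ± SD overlapped between neighbours in this order. Rgs1 and Rgs14 were the lowest, at 0.0775 ± 0.0110 and 0.0588 ± 0.0140 CPM per kb. The merged exons of Rgs1, 6947 bases, cover its whole gene from end to end. A shorter spliced transcript would give Rgs1 a higher level per kb, so its rank is uncertain.

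In iD1 livers Rgs16 came first at 46.5 ± 26.5 CPM per kb and Rgs5 next at 4.73 ± 0.665 CPM per kb (SD, n = 3). Rgs16 thus went from below Rgs5 in every vehicle library to above it in every iD1 library. Rgs2 followed at 0.940 ± 0.342, and Rgs4, Rgs3, Rgs10, Rgs1 and Rgs19 lay between 0.561 and 0.384 CPM per kb. From Rgs2 to Rgs19 the ranges of mean ± SD overlapped between neighbours in this order. Rgs12 at 0.155 ± 0.0328 and Rgs14 at 0.0574 ± 0.0239 CPM per kb were the lowest. Per kb of its merged exons, Rgs1 stood near Rgs14 in vehicle livers and near Rgs10 and Rgs19 in iD1 livers. Both places are uncertain, since those merged exons cover its whole gene.

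A further 13 genes of the family and its binding proteins were looked up, and 12 of them were too low to be tested. The highest of the 12 in any library was at 0.458 CPM. Rgs13, Rgs21 and Rgs22 had 0 counts in all libraries. The exception was Rgs7bp, which encodes the membrane anchor of the R7 subfamily. Rgs7bp measured 0.978 ± 0.0922 CPM without and 0.370 ± 0.205 CPM with iD1 (SD, n = 3 each) and was called lower, at a log2 fold change of -1.41 (SE 0.41; edgeR adjusted p = 0.0438). This call was lost without any 1 library other than iD1 replicate 1. Of 15 tested genes with an RGS-like domain outside the family, such as G-protein-coupled receptor kinases and axins, 0 were called by edgeR, DESeq2 or limma-voom. Of the 15, 3 had an unadjusted p under 0.05 in edgeR, beside 2088 higher and 2205 lower among all 13718 tested genes. Without iD1 replicate 1, 1 of the 15 was called. Axin1, a scaffold of beta-catenin destruction, had the smallest p of these, at a log2 fold change of 0.42 (SE 0.13; edgeR adjusted p = 0.0528). Next was Grk5, a receptor kinase, at -0.65 (SE 0.23; adjusted p = 0.0853).

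RGS proteins act on G-protein alpha subunits, of which 12 were tested, 1 called higher and 1 lower. That is 16.7% of the 12, beside 16.7% of all tested genes. Gnat1, known as the rod transducin, went from 9.23 ± 3.07 to 19.9 ± 5.61 CPM, and Gna14, of the Gq class, from 2.05 ± 0.703 to 0.910 ± 0.0313 CPM (SD, n = 3 each). Each of these calls was lost without several single libraries, and without iD1 replicate 2 neither was called. Gnai1, Gnai2 and Gnai3, the Gi subunits on which most RGS proteins act, were not called, at log2 fold changes of 0.55, 0.32 and -0.32. Of 11 beta and gamma subunits 0 were higher and 1 lower, Gng11, from 4.79 ± 0.944 to 2.77 ± 0.341 CPM, a call lost on leaving out iD1 replicate 1 or 2, vehicle replicate 1 or the vehicle library with no number. Of 9 other regulators 0 were higher and 2 lower: Gpsm2, which holds alpha subunits of the Gi class in their GDP form, and Homer2, a scaffold protein. Gpsm2 fell 2.33-fold, a log2 fold change of -1.22 (SE 0.18; edgeR adjusted p = 0.00227). Homer2 fell 1.61-fold, a log2 fold change of -0.69 (SE 0.13; edgeR adjusted p = 0.00800).

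Among 42 tested G-protein-coupled receptors of liver cells, 5 were called higher and 7 lower, 28.6% in all beside 16.7% of all tested genes. S1pr1, the sphingosine 1-phosphate receptor of endothelial cells, fell from 54.3 ± 4.87 to 17.7 ± 5.63 CPM. P2ry12, an ADP receptor coupled to Gi, fell from 1.27 ± 0.230 to 0.236 ± 0.0393 CPM. P2ry2, a nucleotide receptor coupled to Gq, rose from 7.30 ± 0.535 to 12.9 ± 1.23 CPM (SD, n = 3 each). The count of called receptors was 5 without vehicle replicate 2, and 6 when the unnumbered vehicle replicate was left out. Endothelial markers summed to 172 to 239 CPM in vehicle and 162 to 202 CPM in iD1 libraries with 0 of 10 called by edgeR. At an unadjusted p under 0.05, 1 endothelial marker was higher and 4 lower, the list's median log2 fold change was -0.45, and the part of endothelial cells in the S1pr1 difference was not tested. Kupffer cell and macrophage markers summed to 157 to 260 and 151 to 220 CPM, with 0 of 11 called by edgeR. Of these markers, 1 was higher and 2 lower at an unadjusted p under 0.05. At that unadjusted p, 2088 of all 13718 tested genes were higher and 2205 lower.

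Of 30 tested effectors of G proteins, 2 were called higher and 3 lower, 16.7% in all beside 16.7% of all tested genes. The adenylyl cyclase Adcy1 rose 10.5-fold, from 0.629 ± 0.0405 to 6.64 ± 3.05 CPM, and Rapgef4, an exchange factor activated by cAMP, from 113 ± 23.0 to 305 ± 51.1 CPM. The cAMP phosphodiesterase Pde4a fell 3.59-fold, from 4.80 ± 0.644 to 1.33 ± 0.186 CPM, and the regulatory subunit Prkar2a from 91.5 ± 7.71 to 67.8 ± 1.29 CPM (SD, n = 3 each), the last a call lost without any 1 library other than vehicle replicate 1. The count was 3 without the unnumbered vehicle replicate and 9 when libraries were scaled by size only.

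**Figure D3:**
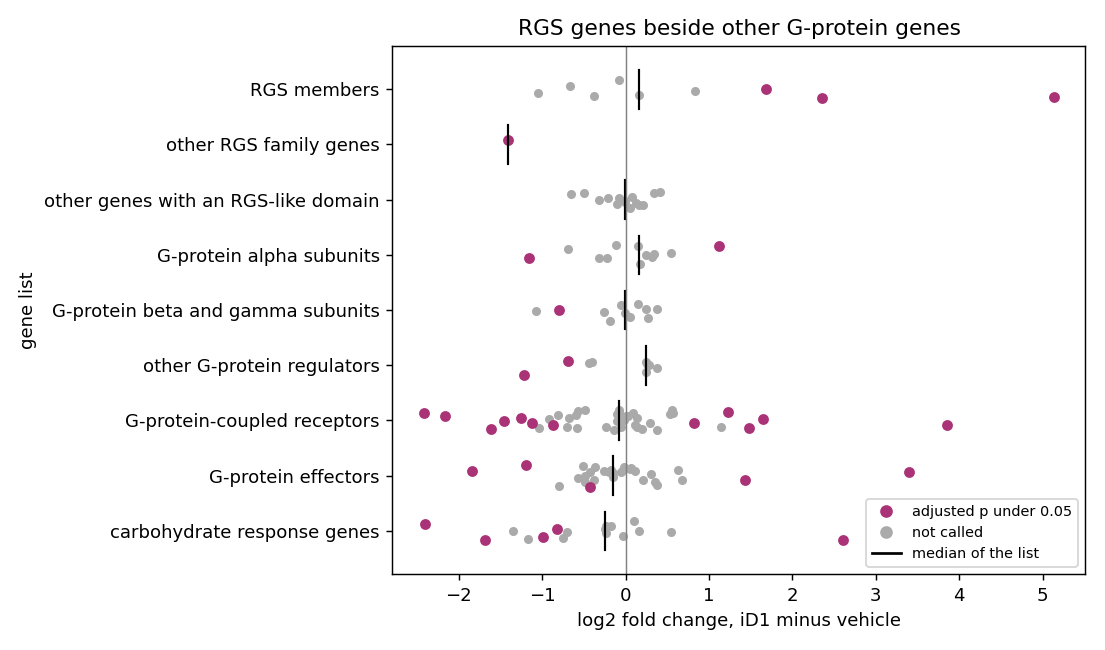
Log2 fold change of iD1 minus vehicle for each tested gene of the RGS members and of 8 other lists, with called genes in purple, others in grey and a line at each list's median. Rgs16 has the largest value shown, at 5.14, and the medians of the lists with more than 1 tested gene lie between -0.25 and 0.24.

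Since Rgs16 is known to follow carbohydrate feeding, genes of the carbohydrate response were set beside it. Of 17 tested, 1 was called higher and 4 lower, 29.4% in all beside 16.7% of all tested genes. Mlxipl, which encodes the carbohydrate response factor ChREBP, fell from 267 ± 34.7 to 134 ± 44.8 CPM (SD, n = 3 each). Fasn, of fatty acid synthesis, fell from 973 ± 125 to 184 ± 135 CPM, and Acaca, of the same pathway, from 127 ± 23.7 to 72.0 ± 22.3 CPM. The calls of Mlxipl, Fasn and Acaca were lost without vehicle replicate 1 or vehicle replicate 2, those of Fasn and Acaca also when iD1 replicate 2 or the unnumbered vehicle replicate was left out, and those of Mlxipl and Acaca also without iD1 replicate 3. The 1 higher gene was Txnip, chosen here after its values were seen, which measured 33.0, 38.9 and 37.6 CPM in the vehicle libraries and 142, 96.5 and 427 CPM in iD1 libraries. Txnip and Rgs16 were both lowest in iD1 replicate 2 and highest in iD1 replicate 3 among the treated libraries. That order was not common to the whole list, since Fasn and Acaca were highest in iD1 replicate 1 and lowest in iD1 replicate 3. The Txnip call, with an adjusted p of 0.0463 in edgeR's test, was lost without any 1 vehicle library or iD1 replicate 1. Over the list, the number called ran from 1 without vehicle replicate 1 or vehicle replicate 2, and 2 when the unnumbered vehicle replicate was left out, to 3 without iD1 replicate 2 or iD1 replicate 3 and 9 without iD1 replicate 1.

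The 5 genes whose 6 log2 CPM values, each centred on the gene's mean, came closest to those of Rgs16 were Itga2, Fbf1, Junb, Gadd45g and Hspa1a, where only genes reaching 1 CPM in the mean of either group were compared. Their root mean square differences from Rgs16 ran from 0.70 for Itga2, an integrin subunit, to 0.76 for Hspa1a, a heat shock protein, on the log2 scale. Fbf1, a protein of ciliary fibres, measured 11.3, 6.27 and 6.98 CPM in the vehicle libraries and 94.2, 167 and 304 CPM in iD1 libraries. Junb, a subunit of AP-1, stood at 4.79, 4.31 and 5.02 CPM in the vehicle libraries and 90.4, 107 and 77.2 CPM in iD1 libraries. Gadd45g, a stress-response gene, went from 5.91 ± 4.05 to 146 ± 48.0 CPM (SD, n = 3 each). Of the 5, Fbf1 shared with Rgs16 the highest value in iD1 replicate 3, whereas Itga2 and Junb were lowest there. Likeness here comes mostly from the difference between the groups. Hspa1a has the near-identical copy Hspa1b, so its value is uncertain.

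**Figure D4:**
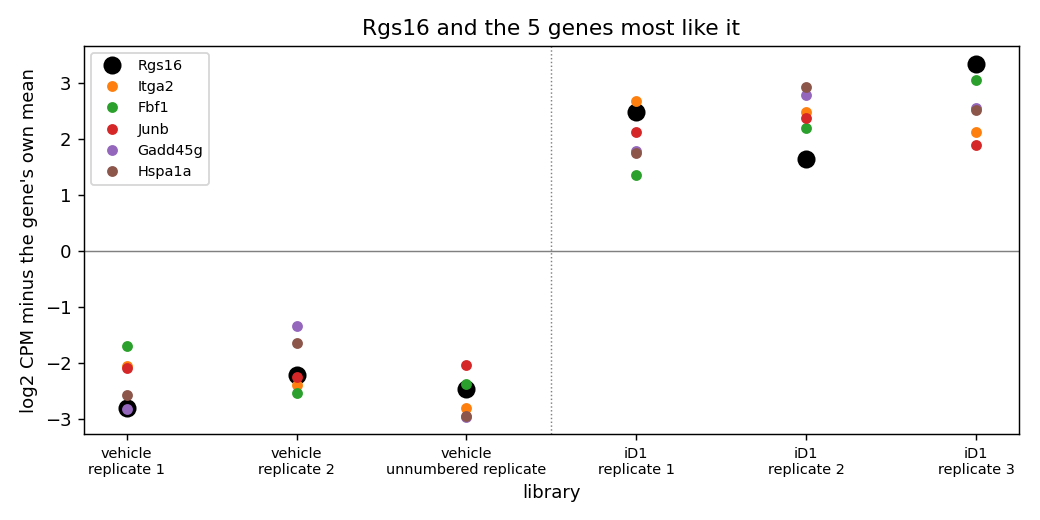
Log2 CPM minus each gene's own mean over the 6 libraries, for Rgs16 in black and the 5 most similar genes in colour, with vehicle libraries left of the dotted line and iD1 libraries right of it. All 6 genes lie below 0 in each vehicle library and above 0 in each iD1 library, and Rgs16 ranges from 1.64 to 3.34 among the iD1 libraries.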

How the data were processed

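Liver mRNA libraries, made with a stranded kit per the labels' protocols, were compared between 3 iD1 and 3 vehicle samples. The authors deposited unscaled estimated counts for each gene. Neither aligner, quantifier nor build is stated in the labels. In a library, 22.6% to 27.7% of the values were not whole, and the expected counts were rounded before any test. Identifiers were matched without version to GENCODE M21 on GRCm38 (99.4% matched), which gave symbols, positions and exon lengths. Promoters are RefSeq's for GRCm38.p6.

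Genes were kept by edgeR's filterByExpr (minimum count 10, minimum total 15) and scaled by TMM. The groups were compared with edgeR 4.0.16 (robust quasi-likelihood F test, two-sided, R 4.3.3) and Benjamini-Hochberg adjustment over 13718 genes, with a threshold of 0.05. CPM use TMM-scaled library sizes. The standard error is the size of the log2 fold change divided by the square root of F. An exact permutation test of 3 against 3 cannot go under 0.1 and was not used. Replicates were checked by chi-square per degree of freedom, 38.5 to 95.4 within groups, so none was counted as a duplicate. The fit was also run on counts simulated from its own means and dispersions, which cannot show how it performs on the real libraries. The members and the 8 other gene lists were chosen with earlier results of these data known. Of each other list, up to 4 called genes by smallest p were named, or 2 uncalled ones, and the Gi subunits and Txnip were named besides. Some genes that this rule names are not reported here. Sums over 10 lists of cell type markers are given beside the results. The alternatives tried were 3 other scalings, DESeq2 1.42.0 and limma-voom (limma 3.58.1), 2 other filters, a stricter threshold, a replicate block and leaving out each library.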

Additional observations from a re-analysis of the deposited data

How the results depend on the processing

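Under 15 alternatives the number of RGS members called higher was 2 to 4, beside 3 of 9 reported. It was 2 at an adjusted p under 0.01 and 4, with Rgs2, under DESeq2 and with no filter on low counts. The number called lower was 0 except without iD1 replicate 1, where it was 1, Rgs3. Rgs16 and Rgs1 kept their call in each alternative, with log2 fold changes of 4.56 to 5.45 and 2.14 to 2.55. Rgs4 lost it at an adjusted p under 0.01 and without vehicle replicate 2. Without 1 library in turn, Rgs5 ranged from -0.19 to 0.0053, with a change of sign without iD1 replicate 2, and Rgs19 from -0.046 to 0.46, with a change of sign without vehicle replicate 1. Rgs19 was at -0.035 with library size only. That setting moved the median over all tested genes to -0.20 and called 597 genes higher and 1883 lower, beside 1155 and 1138. Upper-quartile factors called 902 and 1447. The cause of these changes was not tested.

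Pairing was checked for numbers 1 and 2, which both groups have. Deviations from group means correlated at 0.17 and -0.13 for libraries of the same number, and at -0.11 to 0.082 for unlike numbers. Whether samples of the same number share more than that number cannot be decided from so few libraries. The replicate block fit of these 4 libraries called 767 genes, beside 2293, among them 3 members higher and 0 lower, 0 other RGS family genes, 0 alpha subunits, 0 beta and gamma subunits, 1 other regulator, 5 receptors and 3 effectors. At an adjusted p under 0.01, 825 genes were called, with 0 other RGS family genes, 0 alpha subunits, 0 beta and gamma subunits, 4 receptors, 3 effectors and 1 carbohydrate response gene. The filter of 1 CPM in 3 libraries left 0 other RGS family genes called. limma-voom called 1 alpha subunit, no filter on low counts 1 alpha subunit and 3 carbohydrate response genes, and library size only 9 effectors.

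Without 1 library in turn, the number called ranged from 2 to 4 for members higher, 0 to 1 for members lower, 0 to 1 for other RGS family genes, 0 to 1 for genes with an RGS-like domain, 0 to 1 for alpha subunits, 0 to 1 for beta and gamma subunits, 2 to 3 for other regulators, 5 to 15 for receptors (6 without the unnumbered vehicle replicate), 3 to 5 for effectors and 1 to 9 for carbohydrate response genes. No library held more than 43 counts of Rgs10, Rgs14 or Rgs19, so moderate differences in these may not be detectable at this depth.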
